A study of Mus musculus with 12 samples.

Results

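This comparison set the liver cells with the brightest reporter fluorescence, called high here, against the cells with none, called neg, in mice that carry a Sox9EGFP transgene. The members were the 3 high and 3 neg libraries of the 12 in the series, and all genes whose normalised counts averaged 10 or more across the series, which left 16128 of 54227 gene symbols. All groups shared the Sox9EGFP transgene, the C57Bl/6 background and a 16 h fast before the liver was digested to single cells. Each library was made from the RNA of 12000 cells gated by fluorescence. The other 2 populations, sub and low, lie between neg and high and helped to estimate the spread between libraries. The labels do not say whether the 3 libraries of a population came from different animals, so p-values measure the spread between these libraries, which may be technical. The descriptions give same-numbered libraries of the 4 populations a shared identifier and do not say what it marks. EGFP stands for reporter fluorescence and not for the Sox9 protein, and the gate holds any cell type that passes it. Age and sex are not given in the sources used here.

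Sox9 is a transcription factor of the SOX family that is needed in the development of many epithelia and cartilage. In the adult liver it is best known as a marker of the biliary epithelium, the cells that line the bile ducts, modify bile by moving bicarbonate, chloride and water, and carry a primary cilium. Lower levels occur in some hepatocytes near the portal tract. The liver also holds sinusoidal endothelial cells, which line its capillaries and scavenge waste from blood, stellate cells, which store retinoids and make matrix when activated, Kupffer cells and lymphocytes, none of which is defined by Sox9.

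The data were 1 table of normalised counts, in which a single factor for each library scales its reads. The neg libraries held 8775387 to 15535588 recovered reads and the high libraries 10934801 to 13856809. The lowest of the latter is high 2, in which 1 read is worth 1.01, too close to 1 for the recovery to be as sure as in the other high libraries. Between 9087 and 11207 genes were above 0 in the neg libraries and between 9729 and 11957 in the high libraries. Several genes that every cell uses were listed at 0 in some libraries: Hprt, a purine salvage enzyme, was at 0 in high 2 but at 1525 in neg 2. For this reason a value of 0 is described as listed at 0, and the value in each library is given. The 2 mitochondrial ribosomal RNAs took 2.10 to 2.78% of the summed values in neg and 5.17 to 5.99% in high.

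The labels held for the gene of the reporter. Sox9 (chr11:112782224-112787760, plus strand, mm10) was at 11794, 13969 and 13497 normalised counts in the high libraries 1, 2 and 3, and at 0.691, 0 and 0 in the neg libraries. The lowest high library thus lay far above the highest neg library, and neg held at most 3 reads per library, which puts the difference at 3567-fold or more. Its log2 fold change, computed on log2(normalised count + 1) with limma, was 13.42 ± 0.76 (SE), with an adjusted p of 7.3e-10. Because the cells were sorted on a Sox9 reporter, this is a check of the labels.

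In all, 757 of the 16128 genes passed the threshold of an adjusted p below 0.05, which is 4.69%: 394 were higher in high (2.44%) and 363 were lower (2.25%). The shares of 2.44% and 2.25% are the comparison for the count of every gene list that follows. The lists were chosen with earlier results of these data known, so their counts are a description. Neg held at most 3 reads per library for 174 of the genes that rose, and high for 175 of the genes that fell, which leaves 220 that rose and 188 that fell with more reads than that in the lower population. The lowest high library lay above the highest neg library for 392 of the 394 genes that rose and for 1637 of all genes (10.2%); the reverse held for 363 of 363 that fell and for 1389 of all genes (8.61%). Over all genes the median log2 fold change was 0.13, and its median SE was 2.35. Modest changes were therefore poorly resolved for genes with an SE of that size. Genes with smaller SEs could pass by limma at modest values, such as Jun (log2 fold change 1.24 ± 0.11, adjusted p = 3.6e-07). Without the variance trend, that of Jun was 0.55. Without high 1 the number of genes past the threshold was 467 (237 higher, 230 lower), and without high 3 it was 485 (270 higher, 215 lower). In bulk samples, fewer cells of a type and less RNA per cell cannot be told apart, and this holds for every result that follows.

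**Figure D1:**
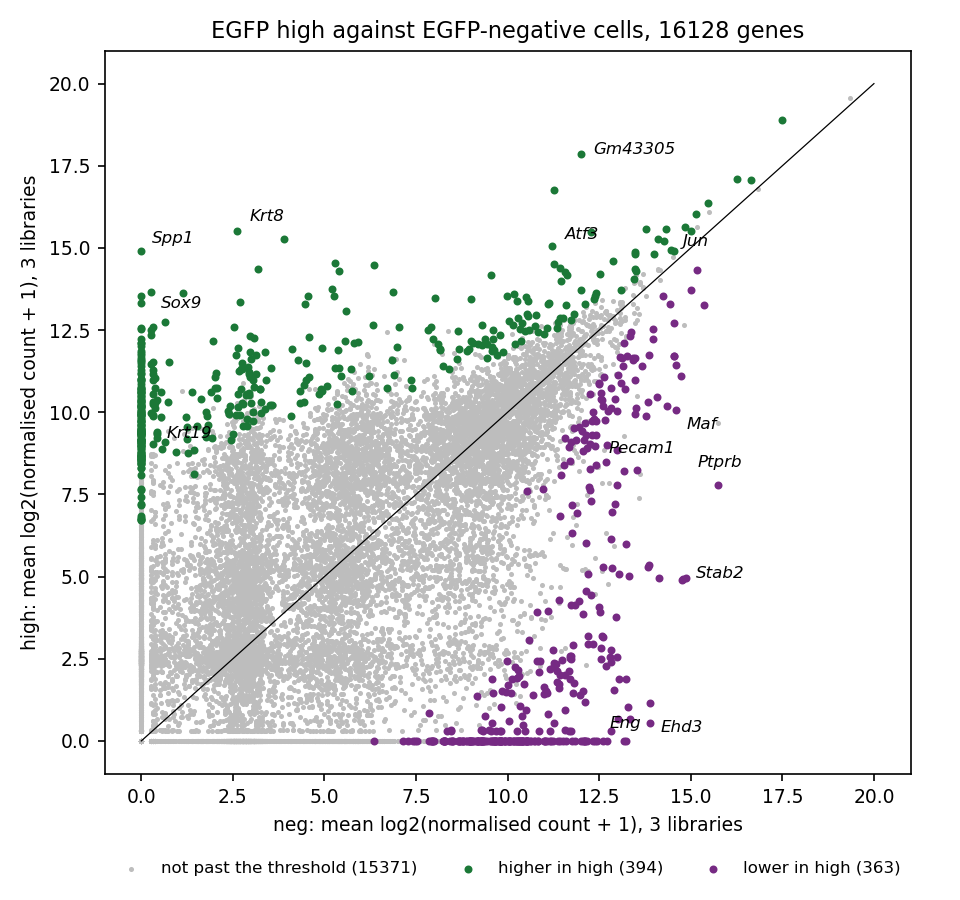
Mean log2(normalised count + 1) of the 3 high libraries (vertical axis) against that of the 3 neg libraries (horizontal axis) for 16128 genes. Green points are the 394 genes higher in high, purple points the 363 genes lower in high and grey points the genes that did not pass; many coloured points lie on the axes, where a gene was at or near 0 in 1 of the 2 populations.

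The 12 largest rises were ranked among called genes that averaged 100 or more, had a protein-coding symbol and showed no overlap between the libraries. They were Spp1, Pkhd1, Sox9, Eppk1, Krt8, Scara3, Ankrd1, Cdh1, Ptprf, Clmn, Onecut2 and Ahsg. Spp1 (chr5:104435118-104441050, plus strand) encodes osteopontin, a secreted glycoprotein of duct cells. It was at 27254, 28249 and 36557 in the high libraries and listed at 0 in all 3 neg libraries, with a log2 fold change of 14.89 ± 0.54 and an adjusted p of 7.0e-13. Pkhd1 (chr1:20057779-20618064, minus strand), the gene of recessive polycystic kidney and liver disease, was at 11167, 13154 and 11654 in high and at 0 in neg. Krt8 (chr15:101996698-102004482, minus strand), a keratin of simple epithelia, was at 45340, 50992 and 43439 in high and at 0.691, 0 and 133 in neg. Eppk1, which encodes the keratin-binding protein epiplakin, was at 8441, 11148 and 11615 in high, and Ptprf, a receptor phosphatase at cell junctions, at 5871, 6565 and 6053. Scara3, a scavenger receptor family member, ranged from 5914 to 6205 in high, and Clmn, the actin-binding protein calmin, from 4937 to 7241. None of these last 4 genes exceeded 1 normalised count in a neg library. The calls of 10 of the 12 genes held under all 19 alternative analyses, and that of Onecut2 held under the 18 that gave it a value (DESeq2 on 12 libraries gave none). The call of Krt8 held under 16 of the 17 that gave it a value, and DESeq2 on 12 libraries again gave none. It was lost in the fit of the high and neg libraries alone, with an adjusted p of 0.050.

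The 12 largest falls by the same rule were Ehd3, Eng, Pde2a, Stab1, Col3a1, Flt1, Col13a1, Ccdc80, Exoc3l2, Hecw2, Adgrl4 and Slc43a3. Ehd3 (chr17:73804134-73832094, plus strand), a protein of endosome recycling, was at 15226, 14223 and 16293 in the neg libraries and at 0, 2.02 and 0 in the high libraries. Its log2 fold change was -13.36 ± 1.76, with an adjusted p of 7.4e-05. Eng (chr2:32646595-32682669, plus strand), the co-receptor endoglin for ligands of the BMP and TGF-beta family, was at 9523, 11277 and 8311 in neg and listed at 0 in high, and was at least 3200.4-fold lower in high. Pde2a, a phosphodiesterase stimulated by cyclic GMP, was at 12665, 9753 and 6595 in neg, and Flt1, VEGF receptor 1, at 12494, 8751 and 10508. In high, Pde2a was listed at 0 throughout and Flt1 reached 3.03 in high 2. Exoc3l2 ranged from 3903 to 6600 in neg, Hecw2, a ubiquitin ligase, from 4743 to 5844, Adgrl4, an adhesion receptor of endothelial cells, from 7207 to 9890, and Slc43a3, a purine transporter, from 3197 to 7120. All 12 lay below 10 in every high library, and all 12 calls held under each of the 19 alternatives. Eng overlaps Fpgs on the opposite strand and Stab1 overlaps Nt5dc2; whether counting used strand is not given in the sources used here, so reads of such partners cannot be told apart.

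**Figure D2:**
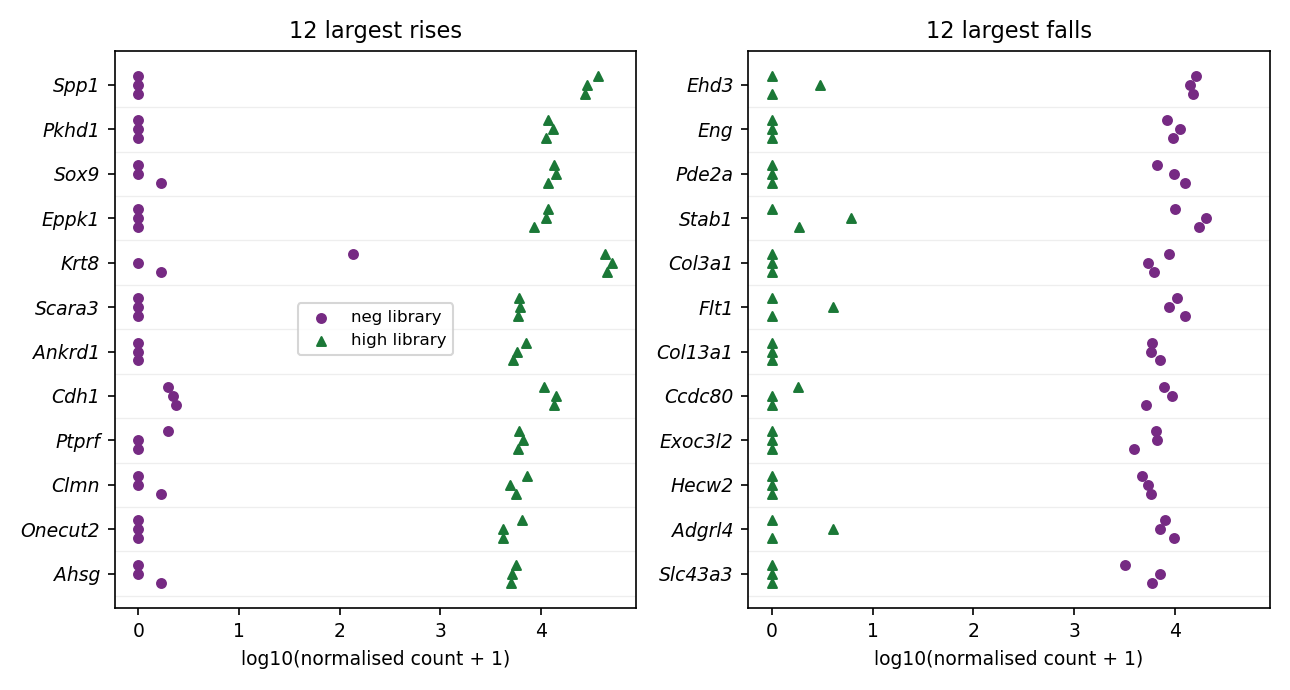
Normalised counts of the 12 genes with the largest rises (left) and the 12 with the largest falls (right), as log10(normalised count + 1), with 1 point per library (purple circles: neg, green triangles: high). No overlap between the populations was part of the rule that chose the 24 genes; the only point between the 2 clusters is Krt8 in neg 3, at 133.

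Promoters are shown for the genes of the fixed list and of the largest changes whose 150 bases before the annotated start held a match to the letters GTTAAT, bound by HNF1 factors, for genes that rose, or GGAAGT, bound by ETS factors, for genes that fell. By this rule the windows of Epcam, Krt8 and Ankrd1, which rose, and of Ehd3, Pde2a and Stab1, which fell, held no match, among others. Sox9, Krt19, Cdh1 and Pecam1 were among the genes without a window. ETS factor genes themselves lay on both sides: Ehf and Elf3 rose and Erg fell. Capitals mark the match on either strand, and the sequences are from RefSeq on GRCm38.p6. The first set, of genes that were higher in high, lies at chr1:20618058-20618207 (minus strand, Pkhd1), chr5:90460720-90460869 (plus strand, Alb) and chr2:163547005-163547154 (plus strand, the downstream of 2 annotated starts of Hnf4a).
Pkhd1: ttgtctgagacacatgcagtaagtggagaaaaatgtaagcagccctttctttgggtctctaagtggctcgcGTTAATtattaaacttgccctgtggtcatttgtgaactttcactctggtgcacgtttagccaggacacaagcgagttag
Alb: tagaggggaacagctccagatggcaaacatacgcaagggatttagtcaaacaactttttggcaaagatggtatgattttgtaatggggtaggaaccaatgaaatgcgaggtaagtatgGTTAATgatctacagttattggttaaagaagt
Hnf4a: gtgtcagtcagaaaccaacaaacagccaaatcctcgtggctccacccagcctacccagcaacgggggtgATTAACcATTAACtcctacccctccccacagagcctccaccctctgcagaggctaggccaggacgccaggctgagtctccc
In these 3 windows the match began 79, 32, and 81 and 74 bases before the start, respectively. The second set, of genes that were lower in high, lies at chr2:32646445-32646594 (plus strand, Eng), chr5:147726012-147726161 (minus strand, Flt1) and chr10:61979109-61979258 (minus strand, Col13a1).
Eng: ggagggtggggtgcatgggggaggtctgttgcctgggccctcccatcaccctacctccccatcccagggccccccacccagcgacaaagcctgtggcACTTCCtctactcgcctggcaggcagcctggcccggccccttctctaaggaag
Flt1: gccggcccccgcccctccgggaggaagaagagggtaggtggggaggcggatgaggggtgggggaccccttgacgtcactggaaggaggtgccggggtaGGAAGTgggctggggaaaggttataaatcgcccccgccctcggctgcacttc
Col13a1: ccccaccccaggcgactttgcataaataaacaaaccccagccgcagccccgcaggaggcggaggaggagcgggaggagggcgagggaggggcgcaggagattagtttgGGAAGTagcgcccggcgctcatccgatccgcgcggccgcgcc
Here the match began 53, 52 and 42 bases before the start. GGAAGT was not limited to genes that fell: it also occurred 111 bases before 1 of the 2 annotated starts of Spp1, which rose, and in windows of Clec4f and Ptprc, which did not pass. Over 300 bases, 250 before to 50 after the start, GTTAAT occurred in 5.51% of 272 promoters of genes that rose, in 2.36% of 254 of genes that fell and in 4.47% of the 10621 promoters of all genes tested that the table held. GGAAGT occurred in 17.3%, 22.4% and 27.7% in the same order. GGAATG (TEAD factors) occurred in 14.3%, 12.6% and 12.3%, ACAATG (SOX factors) in 7.72%, 5.12% and 7.55%, and TGANTCA (AP-1) in 8.46%, 6.30% and 5.53%. Both strands were searched, and these letters are a description of the window and not evidence of binding.

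Genes of biliary identity were higher in high. Of the 14 genes of that list 13 were tested, 10 rose and 0 fell, with a median log2 fold change of 8.98 against 0.13 over all genes. The 10 include Sox9, on whose reporter the cells were sorted. They also include Itgb4 and Bicc1, which are counted again in the integrin and cilium lists below. Epcam, an adhesion molecule of epithelia, was at 4921, 4212 and 3487 in high and listed at 0 in neg (log2 fold change 12.02 ± 1.12, adjusted p = 8.7e-07). Krt19, the keratin most used to recognise duct cells, was at 1415, 449 and 485 in high and at 1.38, 0 and 0 in neg (log2 fold change 8.98 ± 1.35, adjusted p = 3.1e-04). Krt7, the other duct keratin, was at 1198, 1346 and 385 in high and at 410, 127 and 20.3 in neg, so the populations overlapped and the gene did not pass (adjusted p = 0.21). Krt18, the partner of Krt8, ranged from 19900 to 22300 in high and from 0 to 390 in neg; Tspan8, a tetraspanin, ranged from 1378 to 1939 in high and was listed at 0 in neg. Prom1, whose product CD133 marks epithelial progenitors, and the growth factor receptor gene Fgfr2 did not pass, with adjusted p-values of 0.13 and 0.20. The summed level of the list was 1549 to 4083 in neg, 126610 to 138774 in high and 138732 to 152269 in low. Between 7 and 10 genes of the list passed when each library was left out, of which 7 passed every time, and 4 in the fit of high and neg alone, in which the calls of Krt19 and Krt18 were lost (adjusted p = 0.053 and 0.097); Prom1 passed without neg 3 (0.049).

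Of 14 transcription factors of simple epithelia 11 rose and 0 fell, with a median log2 fold change of 9.88. Onecut2 and its relative Onecut1 act early in the biliary lineage. Onecut2 was at 4212, 4141 and 6413 in high and listed at 0 in neg (log2 fold change 12.23 ± 1.19, adjusted p = 1.6e-06). Glis3, a zinc finger factor, was at 3605, 4005 and 3545 in high, and Ehf, an ETS factor of epithelia, at 4792, 2651 and 3644, both again listed at 0 in each neg library. These 3 genes showed no overlap between populations. Sox4, a second SOX factor of duct formation, was the exception to the near absence in neg, at 925 to 2039 there and 8804 to 12033 in high (log2 fold change 3.14, adjusted p = 3.0e-05). Klf5, Grhl2, Foxa1, Onecut1, Elf3 and Foxa2 also rose, with log2 fold changes from 8.87 to 11.30. Foxa2 and Elf3 lost their calls whenever any library was left out (adjusted p from 0.098 to 0.155 and from 0.061 to 0.103), Onecut1 without high 1 or high 3 (up to 0.056) and Foxa1 without high 3 (0.052). Foxa2 and Elf3 were also lost in the fit of high and neg alone (0.069 and 0.057), and Sox4 without the variance trend, which borrows precision from genes of like abundance (0.10).

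**Figure D3:**
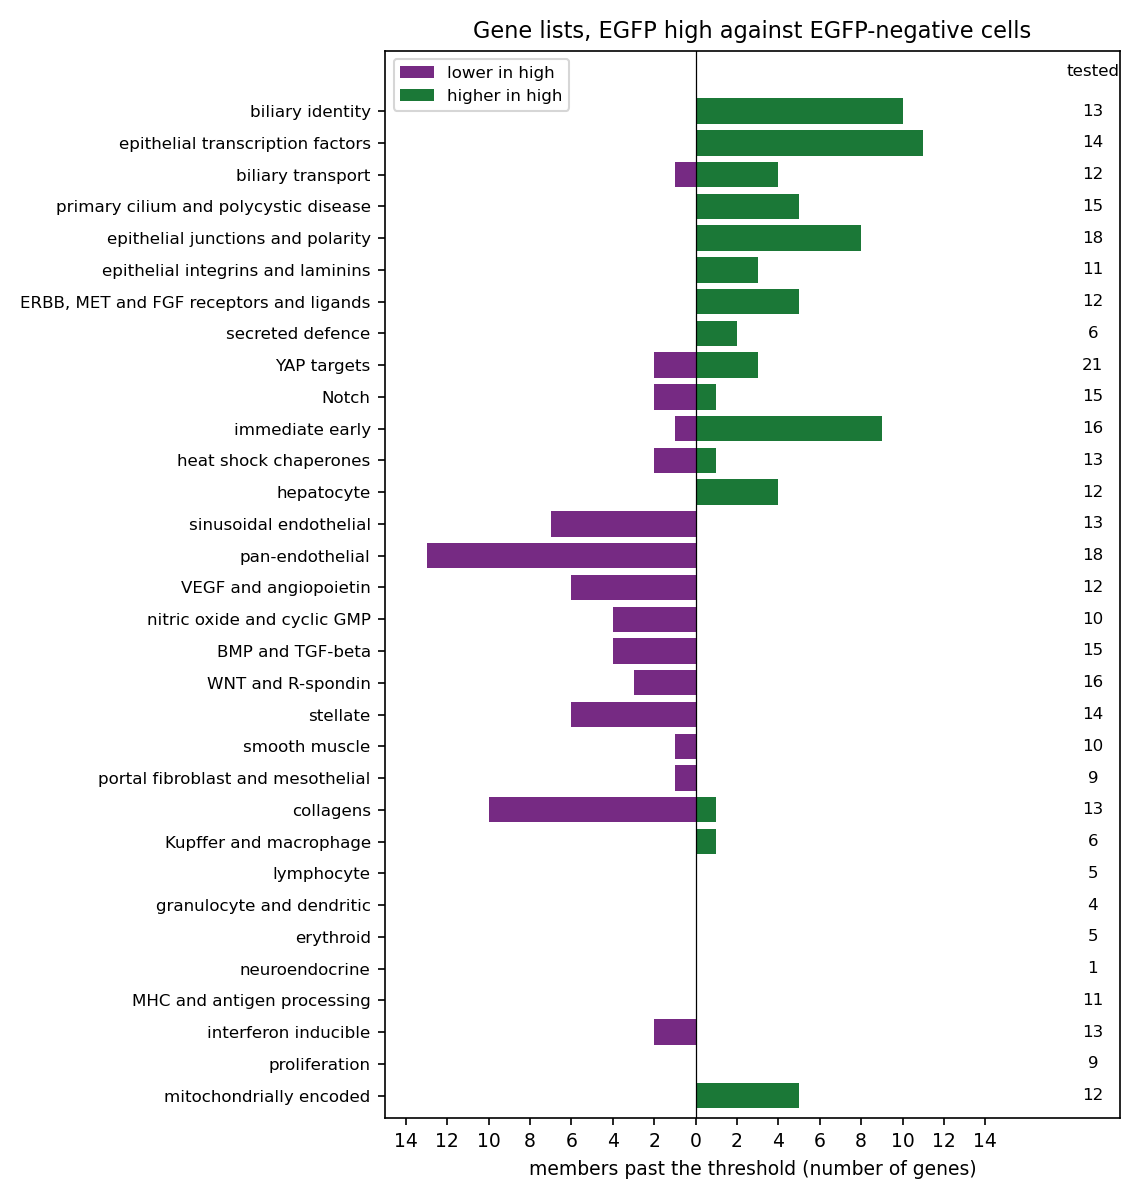
Number of members past the threshold in each gene list, with bars to the right for genes higher in high and to the left for genes lower in high, and the number of members tested at the right edge. Lists of epithelial genes lie to the right, with 11 of 14 epithelial transcription factors higher, and lists of endothelial, stellate and matrix genes to the left, with 13 of 18 pan-endothelial genes lower.

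Of the cell junction and polarity genes, 8 of 18 were higher in high and 0 were lower, with a median log2 fold change of 8.36. Cdh1 (E-cadherin), the adhesion molecule of epithelial contacts, was at 13403, 13973 and 10677 in high and at 1.38, 1.22 and 0.966 in neg, 1 or 2 reads in each neg library (log2 fold change 12.49 ± 0.71, adjusted p = 7.8e-10). Dsp, the desmosome protein desmoplakin, was at 17660, 23243 and 20355 in high and at 109, 1.22 and 301 in neg. Ocln, occludin of the tight junction, ranged from 2379 to 3790 in high and from 0 to 0.966 in neg, and Pard6b, a polarity protein, from 515 to 2017 in high and at 0 in neg. Each of these 4 genes lay apart between the populations. Cldn3, Patj, Esrp1 and Cldn4 were the other members that rose, with log2 fold changes of 9.95, 6.60, 9.09 and 8.56. Cgn, the tight junction protein cingulin, was at 950 to 2499 in high and at 0 to 8.98 in neg but missed the threshold (adjusted p = 0.058), though it passed in the fit of high and neg alone (0.041), with edgeR (0.0058) and with DESeq2 (8.0e-05). Jup, plakoglobin, which endothelial junctions share, was at 1115 to 2841 in high and 622 to 1785 in neg (adjusted p = 0.73). In the fit of high and neg alone 5 genes of the list rose, and with DESeq2 15 did. Cldn4 lost its call without any 1 of the 6 libraries (adjusted p from 0.120 to 0.224), Patj without neg 3 or any high library (up to 0.172), and Dsp and Esrp1 in the fit of high and neg alone (0.096 and 0.057), Esrp1 also with edgeR (0.061).

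Of the 11 epithelial integrins and laminins, 3 rose and 0 fell, with a median log2 fold change of 2.72. Itgb8, an integrin subunit that binds latent TGF-beta, was at 2143, 2028 and 2139 in high and at 0, 1.22 and 0 in neg (log2 fold change 10.65 ± 1.60, adjusted p = 3.1e-04). The high libraries lay close together for this gene and apart from neg. Itgb4, the laminin receptor subunit of hemidesmosomes, rose as well (log2 fold change 7.68 ± 1.66, adjusted p = 0.0091), but without neg 2, neg 3 or any high library its adjusted p was up to 0.082. Lama5, a laminin chain of many basement membranes, was at 1648, 1810 and 1205 in high and 1892, 2157 and 2210 in neg and did not pass (adjusted p = 0.70). The call of Itgb4 was lost in the fit of high and neg alone (adjusted p = 0.19) and with edgeR (0.10).

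Among transporters of bile formation, 4 of 12 tested rose and 1 fell, with a median log2 fold change of 3.93. Slc5a1, the sodium-glucose cotransporter SGLT1, with which ducts take up glucose from bile, was at 2073, 1374 and 1920 in high and listed at 0 in neg (log2 fold change 10.78 ± 1.37, adjusted p = 4.8e-05). Slc4a4, a sodium bicarbonate cotransporter, was at 2358, 3626 and 3581 in high and at 620, 358 and 267 in neg, 7.68-fold higher by the means (log2 fold change 3.00 ± 0.69, adjusted p = 0.015). Ano1, a calcium-activated chloride channel, ranged from 811 to 2227 in high and from 0 to 120 in neg, and Cftr, the chloride channel altered in cystic fibrosis, from 215 to 963 in high and at 0 in neg. Aqp1, a water channel, went the other way, at 0, 58.6 and 632 in high and 10004, 10017 and 5823 in neg (log2 fold change -7.96 ± 2.08, adjusted p = 0.032). Aqp1 is known in duct cells and in endothelial cells alike. Sctr, the secretin receptor, was listed at 0 in all 6 libraries. Calls here leaned on single libraries: Cftr lost its call without any 1 of the 6 (adjusted p from 0.094 to 0.154), Ano1 without any high library (up to 0.124), Slc4a4 without high 2 or high 3 (up to 0.063), and Aqp1 without any library but high 3 (up to 0.200). The counts that rose were then 1 without high 2 or high 3 and 2 without high 1. In the fit of high and neg alone 2 genes rose, with the calls of Cftr and Ano1 lost (adjusted p = 0.070 and 0.23), and without the variance trend 2 rose, with Slc4a4 and Ano1 lost (0.15 and 0.060). The fall of Aqp1 was lost in both (0.20 and 0.096).

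In the list of the primary cilium and polycystic disease, 5 of 15 genes rose and 0 fell, with a median log2 fold change of 2.33. Beside Pkhd1, described above, these were Bicc1, Cys1, Kif12 and Arl13b. Bicc1, an RNA-binding protein whose loss gives cystic kidneys, was at 5591, 8632 and 6352 in high and at 830, 1245 and 2324 in neg, 4.68-fold higher by the means (log2 fold change 2.33 ± 0.46, adjusted p = 0.0048). Cys1, which encodes cystin, was at 875, 732 and 296 in high and listed at 0 in neg (log2 fold change 9.17 ± 2.05, adjusted p = 0.012). Pkd1 and Pkd2, the genes of dominant polycystic disease, did not pass: Pkd1 was at 1272, 807 and 345 in high and 781, 2684 and 2574 in neg, and Pkd2 at 2140, 2515 and 1503 in high and 794, 901 and 128 in neg (adjusted p of 0.56 and 0.10). The counts that rose were 2 without neg 2, high 2 or high 3, and 3 without any other library, and in the fit of high and neg alone 1 gene passed. Kif12 lost its call without any 1 of the 6 (adjusted p up to 0.108), Arl13b without any but neg 1 (up to 0.251), and Bicc1 without neg 1, neg 2, high 2 or high 3 (up to 0.077). Arl13b was also lost with edgeR and DESeq2 (0.39 with either), and it and Bicc1 without the variance trend (0.12 and 0.26).

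Growth factor receptors of the ERBB, MET and FGF families and their ligands rose in 5 of 12 cases and fell in 0, with a median log2 fold change of 4.52. On the ligand side, Hbegf, which activates EGFR and ERBB4, was at 9682, 9000 and 13844 in high and at 951, 3089 and 1176 in neg, 6.24-fold higher by the means (log2 fold change 2.82 ± 0.40, adjusted p = 1.6e-04). On the receptor side, Erbb3 was at 2971, 3036 and 1391 in high and at 67.0, 0 and 0 in neg (log2 fold change 9.15 ± 1.55, adjusted p = 0.0011). Met, the receptor of hepatocyte growth factor, was at 2674, 968 and 954 in high and at 0, 0 and 29.0 in neg (log2 fold change 8.77 ± 1.53, adjusted p = 0.0014). None of these 3 genes overlapped between the populations. Hgf, the ligand of MET and a member of the stellate list, was at 540, 1782 and 546 in neg and listed at 0 in high (log2 fold change -9.66, adjusted p = 0.018), so receptor and ligand lay on opposite sides. Fgfr3 was at 3699, 5029 and 5927 in high and at 837, 46.5 and 380 in neg (log2 fold change 4.28 ± 0.78, adjusted p = 0.0023), and Erbb4 rose from 0 in each neg library to 954 to 1702 in high. Egfr was at 388, 48.5 and 470 in high and at 374, 701 and 787 in neg, with overlap and no call (adjusted p = 0.75). Fgfr3 lost its call without high 2 or high 3 (adjusted p up to 0.0545), and in the fit of high and neg alone 1 of these 5 genes passed. Hbegf and Fgfr3 were lost without the variance trend (0.15 and 0.073), which left 3.

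Of 6 secreted defence genes tested, 2 rose, Pigr and Lcn2, and 0 fell, where 2.44% of all genes rose and 2.25% fell. DESeq2 called 2 genes of the list higher and 1 lower. Pigr, the receptor that carries immunoglobulin A into bile, was at 8353, 10120 and 11941 in high and at 96.7, 0 and 108 in neg (log2 fold change 8.83 ± 1.29, adjusted p = 2.5e-04). Lcn2, the iron-siderophore binding protein lipocalin 2, was at 952, 368 and 858 in high and listed at 0 in neg (log2 fold change 9.39 ± 2.09, adjusted p = 0.011). Cxcl1, a neutrophil chemokine, was at 888 to 2190 in high and 63.6 to 636 in neg and did not pass (adjusted p = 0.31). Lcn2 lost its call without high 1 or high 3 (adjusted p up to 0.054), which left 1 of the 2 genes; in the fit of high and neg alone neither passed (adjusted p of 0.10 for Pigr and 0.0502 for Lcn2).

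Targets of the coactivator YAP, which reports on cell shape, contact and growth, did not move one way: 3 of 21 rose and 2 fell, with a median log2 fold change of 0.41, where 2.44% of all genes rose and 2.25% fell. Ankrd1, a cardiac and injury-response ankyrin protein, was at 5305, 5721 and 7026 in high and listed at 0 in neg, at least 1640.2-fold higher (log2 fold change 12.54 ± 1.12, adjusted p = 4.6e-07). Ccn1, a secreted matrix protein, was at 22781, 23924 and 23267 in high and at 3495, 1589 and 2750 in neg, 8.93-fold higher by the means (log2 fold change 3.23 ± 0.27, adjusted p = 2.1e-07), a call that was lost without the variance trend (adjusted p = 0.073). Its close relative Ccn2 was at 1280, 632 and 766 in high and at 3522, 2278 and 1850 in neg, and did not pass (log2 fold change -1.53, adjusted p = 0.69). Ccn1 lay above neg in every high library and Ccn2 below it. Igfbp3, which binds insulin-like growth factors, was at 1156, 5107 and 3518 in neg and listed at 0 in high (log2 fold change -11.43 ± 1.95, adjusted p = 0.0012), and Ccdc80, a matrix protein, was among the largest falls. Amotl2, which holds YAP in the cytoplasm, was at 2220 to 3734 in high and 5220 to 9999 in neg (adjusted p = 0.13). The third gene that rose, Arhgef17, lost its call without any library but neg 3 (adjusted p up to 0.214), in the fit of high and neg alone (0.28) and with edgeR (0.38) and DESeq2 (0.19). The list without neg 3 held 4 genes that rose, without any other library 2, and without the variance trend 1 rose and 3 fell.

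In the Notch pathway a ligand on a neighbouring cell releases a transcriptional coactivator from the receptor. Of 15 genes tested 1 rose and 2 fell, with a median log2 fold change of -2.05, where 2.44% of all genes rose and 2.25% fell; counts this small are little to read for the pathway. Among receptors, Notch2, which bile duct formation requires, was at 4482, 7117 and 3998 in high and at 25.6, 0 and 505 in neg (log2 fold change 7.73 ± 1.40, adjusted p = 0.0021), whereas Notch1 was at 1498, 1028 and 1745 in high and at 2803, 6451 and 5132 in neg and did not pass (adjusted p = 0.092). Among ligands, Dll4, known from endothelium, was at 1906, 1715 and 3751 in neg and listed at 0 in high (log2 fold change -11.17 ± 2.20, adjusted p = 0.0046). Lfng, a glycosyltransferase that tunes receptor response, was at 376, 1574 and 2015 in neg and listed at 0 in high (log2 fold change -10.05 ± 2.65, adjusted p = 0.034). The target gene Hes1 was at 3681, 4203 and 4601 in high and 1068, 1471 and 1227 in neg; the libraries did not overlap, but the gene did not pass (log2 fold change 1.73 ± 0.69, adjusted p = 0.19), except in the fit of high and neg alone (0.034). Notch2 lost its call without neg 1 or any high library (adjusted p up to 0.076) and in the fit of high and neg alone (0.19), and Lfng without any 1 of the 6 (up to 0.105).

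Part of the hepatocyte list rose too, with 4 of 12 tested genes higher and 0 lower and a median log2 fold change of 6.02. Ahsg, the plasma protein fetuin-A, was at 5018, 5118 and 5667 in high and at 0.691, 0 and 0 in neg (log2 fold change 12.11 ± 1.12, adjusted p = 7.7e-07). Alb (chr5:90460897-90476602, plus strand), albumin, was at 10123, 13040 and 12616 in high and at 301, 0 and 184 in neg, 73.8-fold higher by the means (log2 fold change 8.28 ± 1.34, adjusted p = 7.2e-04). Ttr, transthyretin, was at 1257, 1808 and 800 in high and at 0, 0 and 0.966 in neg (log2 fold change 9.93 ± 2.20, adjusted p = 0.011). Hnf4a, the nuclear receptor that maintains hepatocyte genes, was at 282, 741 and 1352 in high and listed at 0 in neg (log2 fold change 9.36 ± 2.37, adjusted p = 0.027). Other hepatocyte genes did not pass: Fga, a fibrinogen chain, was at 416, 1368 and 461 in high and at 0, 599 and 0 in neg (adjusted p = 0.20), and passed without neg 2 (0.046). Cps1, of the urea cycle, and Cyp2e1, a cytochrome P450, were listed at 0 in each high library, Apoa1 was at 7.79, 0 and 153 in high against 406, 616 and 211 in neg (adjusted p = 0.44), and Apoa2, Apoc3 and Hp were listed at 0 in all 12 libraries. The summed level of the list was 395 to 2033 in neg, 18385 to 22374 in high and 14960.3 to 23193 in low. The part of hepatocytes, or of their free RNA, in the genes that rose was not tested. Hnf4a lost its call without any 1 of the 6 libraries (adjusted p from 0.086 to 0.130) and Alb without high 1 or high 2 (up to 0.057); 2 genes of the list passed without high 1 or high 2. With high and neg fitted alone, 2 also passed, and Alb and Hnf4a were those lost (0.17 and 0.055).

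On the neg side were markers of endothelium. Of 18 pan-endothelial genes 13 fell and 0 rose in high, with a median log2 fold change of -9.87. Ptprb, the phosphatase VE-PTP of endothelial junctions, was at 52001, 64963 and 48700 in neg and at 621, 218 and 76.0 in high, 181-fold lower by the means (log2 fold change -7.97 ± 0.62, adjusted p = 7.6e-08). Pecam1 (CD31; chr11:106654217-106750628, minus strand), an adhesion molecule of endothelium, was at 9984, 15302 and 11060 in neg and at 707, 360 and 111 in high, 30.9-fold lower by the means (log2 fold change -5.28 ± 0.63, adjusted p = 2.3e-05). Neither overlapped between the populations, and both remained detectable in every high library. Besides Eng, Flt1, Tek and Kdr, the others that fell were Cdh5, Egfl7, Robo4, Tie1, Erg, Emcn and Vwf, with log2 fold changes from -11.37 to -6.67. Esam, an adhesion molecule, was at 49.3, 14.1 and 0 in high and 1152 to 2160 in neg but did not pass (adjusted p = 0.053), and Sox7, a SOX factor of endothelium, was at 1085, 0 and 1689 in neg and 11.2, 0 and 0 in high (adjusted p = 0.33). The number that fell was 10 to 12 with each library left out and 12 in the fit of high and neg alone; 10 of the 13 calls held with each library left out, all but those of Kdr, Emcn and Vwf. Kdr had an adjusted p of up to 0.079 without any library but high 3, Vwf of up to 0.109 likewise, and Emcn of 0.065 to 0.097 without any 1 of the 6. Esam passed without high 1 (0.023) and Sox7 without neg 2 (0.042). Kdr lost its call in the fit of high and neg alone (0.10).

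Genes that distinguish the sinusoidal endothelium of the liver fell as well, 7 of 13 tested, with 0 that rose and a median log2 fold change of -7.97. Stab1 and Stab2 encode the stabilins, scavenger receptors of these cells. Stab1 (chr14:31139013-31168641, minus strand) was at 17503, 20196 and 9939 in neg and at 0.865, 5.05 and 0 in high (log2 fold change -12.73 ± 1.42, adjusted p = 1.0e-05). Stab2 (chr10:86841198-87008025, minus strand) was at 33542, 33452 and 23317 in neg and at 0.865, 160 and 96.4 in high (log2 fold change -9.91 ± 1.83, adjusted p = 0.0024). Maf, a transcription factor of the sinusoidal state, was at 27243, 20269 and 27449 in neg and at 877, 1246 and 1116 in high, 23.1-fold lower by the means (log2 fold change -4.53 ± 0.36, adjusted p = 1.0e-07). Of these 3 genes Maf kept the highest level in high. Fcgr2b, an inhibitory receptor that clears immune complexes, was at 8561, 8983 and 3693 in neg and at 0, 61.7 and 0.817 in high (log2 fold change -10.41 ± 1.84, adjusted p = 0.0017), and Mrc1, Clec4g and Oit3 fell, with log2 fold changes of -8.53, -10.34 and -11.83. F8, coagulation factor VIII, did not pass although its libraries lay apart, at 9517 to 14369 in neg and 39.8 to 647 in high (adjusted p = 0.054). The summed level of this list was 106261 to 148557 in neg and 1854 to 3047 in high. Stab2, Mrc1, Clec4g and Oit3 were the calls that single libraries could end: without neg 1, neg 2, neg 3 or high 1, 3 genes of the list passed in each case, without high 2 it was 4 and without high 3 it was 5. The highest adjusted p of these genes with a library left out was 0.081, 0.152, 0.148 and 0.122, in that order. Mrc1, Stab2 and Fcgr2b did not pass in the fit of high and neg alone (0.11, 0.071 and 0.058), nor did Mrc1 without the variance trend (0.068).

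**Figure D4:**
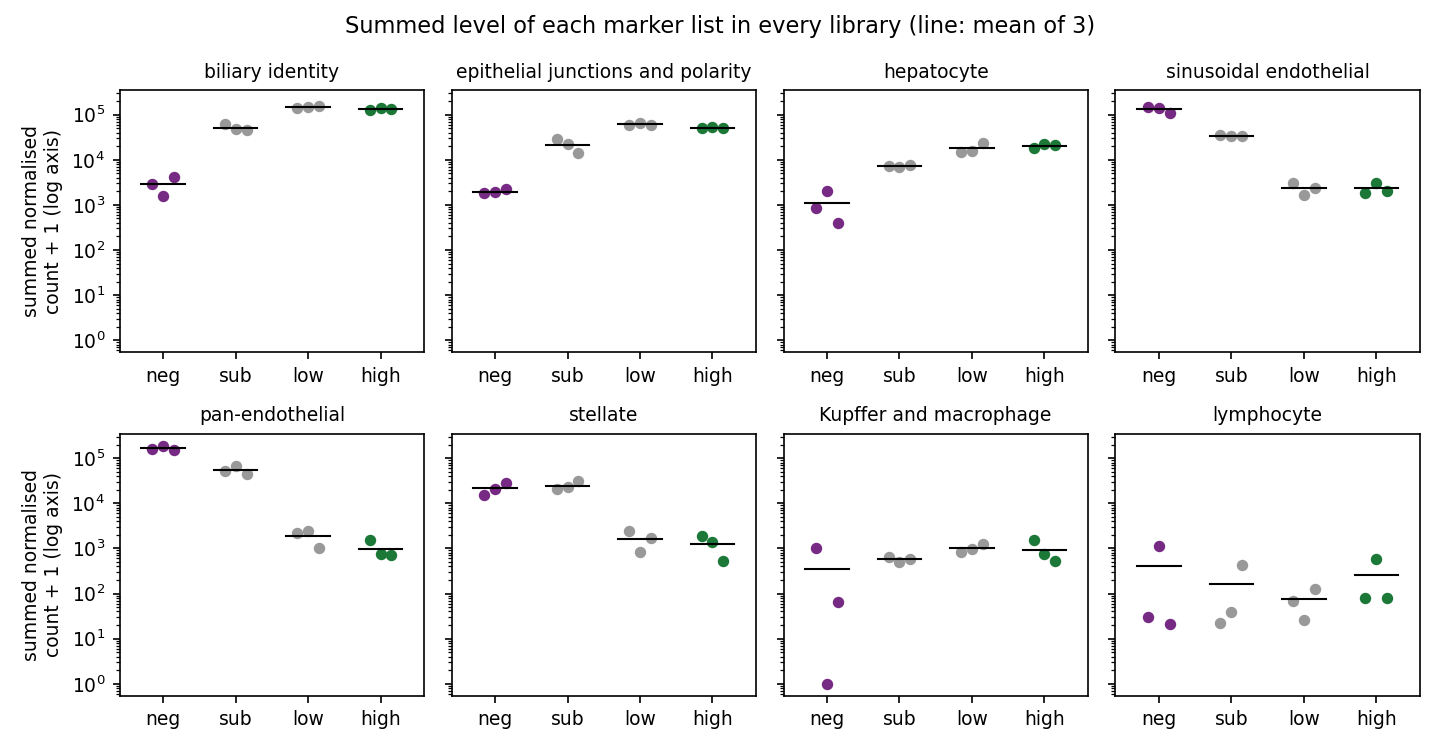
Summed normalised count plus 1, on a log axis, of 8 marker lists in each of the 12 libraries, ordered by reporter fluorescence, with a line at the mean of 3. Biliary and junction genes lie higher in low and high than in neg, and endothelial genes lie lower. The stellate list has a mean of 21277 in neg and 24725 in sub, against 1639 in low and 1265 in high. The Kupffer list stays at or below 1526 in the neg and high libraries.

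In the VEGF and angiopoietin list, 6 of 12 genes fell and 0 rose, with a median log2 fold change of -5.32. All 6 were receptors or co-receptors. Kdr, VEGF receptor 2, was at 24647, 35732 and 25356 in neg and at 88.3, 0 and 321 in high (log2 fold change -9.84 ± 1.85, adjusted p = 0.0030). Tek, the angiopoietin receptor TIE2, was at 9150, 13720 and 8050 in neg and at 0, 0 and 7.35 in high (log2 fold change -12.27 ± 1.98, adjusted p = 6.8e-04), and Nrp2, a co-receptor, was at 10849, 6022 and 8234 in neg and 263, 132 and 310 in high, 35.6-fold lower by the means (adjusted p = 0.0018). The ligand Vegfa did not pass, at 3780, 6755 and 5534 in high and 1409, 4275 and 2546 in neg (adjusted p = 0.26). Flt4, VEGF receptor 3, was at 3756 to 9456 in neg and 187 to 296 in high without passing (adjusted p = 0.081), but was called lower in the fit of high and neg alone (0.017), with edgeR (0.0012) and with DESeq2 (2.8e-04). Without any 1 neg library, or without high 1, 4 genes of the list passed; Kdr and Nrp1 were those lost (adjusted p up to 0.079 and 0.090). Neither passed with high and neg fitted alone (0.10 and 0.087).

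In the nitric oxide and cyclic GMP pathway, which relaxes vessels, 4 of 10 genes fell and 0 rose, with a median log2 fold change of -5.67. Nos3, the endothelial nitric oxide synthase, was at 2955, 70.9 and 963 in neg and listed at 0 in high (log2 fold change -9.20 ± 2.37, adjusted p = 0.029). Downstream, Prkg1, the kinase activated by cyclic GMP, was at 1623, 1567 and 1049 in neg and 34.6, 0 and 0 in high, and Npr1, the receptor of atrial natriuretic peptide, at 3292, 1668 and 3309 in neg and 83.1, 0 and 0 in high. Pde2a was the fourth. Cav1, caveolin, was at 214, 431 and 720 in high and 701, 477 and 578 in neg, with overlap. Of the 4 calls that of Pde2a alone held with each library left out: Nos3 was lost without neg 1, neg 3, high 1 or high 3 (adjusted p up to 0.056), Prkg1 without neg 1, neg 2, high 2 or high 3 (up to 0.063) and Npr1 without any 1 of the 6 (up to 0.223). Without high 3, 1 gene passed, without any other library 2, and in the fit of high and neg alone 1. Nos3, Prkg1 and Npr1 were the genes lost there (0.098, 0.082 and 0.096); edgeR called neither Prkg1 (0.20) nor Npr1 (0.058).

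Among BMP and TGF-beta genes 4 of 15 fell and 0 rose, with a median log2 fold change of -3.55. Bmp2, a ligand that controls iron balance in the liver, was at 8476, 8605 and 7370 in neg and at 0, 200.1 and 0 in high (log2 fold change -10.44 ± 2.0, adjusted p = 0.0036). Ltbp4, which stores latent TGF-beta in the matrix, was at 6565, 4476 and 7236 in neg and at 365, 0 and 0 in high (log2 fold change -9.70 ± 1.67, adjusted p = 0.0013). Bmpr2, a BMP receptor, was lower by a smaller factor, 3.43 by the means, at 10613, 8961 and 5816 in neg and 2769, 3386 and 1245 in high (adjusted p = 0.022), and Eng was the other. Bmp6, the second iron-regulating ligand, was at 2599, 5317 and 1178 in neg and 716, 1061 and 1543 in high, with overlap (adjusted p = 0.78). Bmpr2 lost its call without any 1 of the 6 libraries (adjusted p up to 0.145) and Bmp2 without any but high 2 (up to 0.065), so that 3 genes of the list were lower without high 2 and 2 without any other library. Id2, named after its values were seen, passed as higher without neg 3 and with DESeq2. In the fit of high and neg alone 1 gene was lower, and with DESeq2 9 were. Bmp2, Bmpr2 and Ltbp4 were lost in the former (0.098, 0.13 and 0.14), and Bmpr2 also without the variance trend (0.40).

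WNT signals of the liver are made by endothelial cells of the central vein and set the zonation of hepatocytes. Of 16 genes tested in this list 3 fell and 0 rose, with a median log2 fold change of 0.02, where 2.25% of all genes fell. The 3 that fell were secreted. Rspo3, an R-spondin, was at 3063, 4053 and 7613 in neg and listed at 0 in high (log2 fold change -12.15 ± 2.50, adjusted p = 0.0064). Wnt9b was at 453, 1095 and 608.5 in neg, and Wnt2 at 390, 404 and 39.6, both listed at 0 in high (adjusted p of 0.032 and 0.027). Receptor genes did not pass: Lrp5 was at 6845, 7393 and 3952 in neg and 2299, 1647 and 2919 in high (adjusted p = 0.10). Wnt9b lost its call without any 1 of the 6 libraries (adjusted p up to 0.096), and Lrp5 passed as lower without neg 3 (0.041). Wnt2 was lost in the fit of high and neg alone (0.12), with edgeR (0.39) and with DESeq2 (0.057), and edgeR called 1 gene of the list lower, without Wnt9b (0.18). DESeq2 called 2 genes of the list higher, and without neg 1 the list held 1 gene that rose. The endothelial lists given above fell beside the members of the VEGF, nitric oxide, BMP and WNT lists that fell, and their part in those calls was not tested. Some members are the same genes: Flt1, Kdr, Tek and Tie1 are in the pan-endothelial and the VEGF list, and Eng in the pan-endothelial and the BMP list. Flt4, which did not pass, is in the sinusoidal and the VEGF list.

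Genes of stellate cells and of matrix were on the neg side as well. In the stellate list 6 of 14 tested genes fell and 0 rose, with a median log2 fold change of -8.07. Pdgfra and Pdgfrb, receptors of platelet-derived growth factor, were at 1564, 2759 and 4035 and at 429, 1499 and 3085 in neg, and at 0, 0 and 40.8 and at 0, 0 and 0 in high (adjusted p of 7.2e-04 and 0.010). Ecm1, which keeps TGF-beta latent, was at 2537, 2755 and 2181 in neg and 0, 2.02 and 0 in high (log2 fold change -10.74 ± 2.40, adjusted p = 0.012). Dcn, the proteoglycan decorin, was at 3163, 4752 and 9069 in neg and 247, 0 and 0.817 in high. Lrat, the retinoid-esterifying enzyme that defines quiescent stellate cells, was at 24.9, 1085 and 266 in neg and listed at 0 in high but did not pass (log2 fold change -7.61 ± 2.43, adjusted p = 0.085). Reln, reelin, was at 3244, 4104 and 3426 in neg and 596, 1000 and 160 in high (adjusted p = 0.14). The summed level of the list was 15243 to 27474 in neg, 20966 to 30381 in sub and 531 to 1901 in high. Dcn lost its call without neg 1, neg 2, neg 3, high 2 or high 3 (adjusted p up to 0.115); Lrat passed without neg 1 (0.048), and 5 to 7 genes passed with each library left out and 3 in the fit of high and neg alone, against 8 with edgeR and 12 with DESeq2. Dcn and Pdgfra were among those lost with high and neg fitted alone (0.12 and 0.070).

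Fibril-forming, basement membrane and other collagens fell in 10 of 13 cases and rose in 1, with a median log2 fold change of -8.41. Col3a1 (chr1:45311538-45349706, plus strand), a fibril collagen, was at 6214, 5475 and 8708 in neg and listed at 0 in high. Col14a1, which sits on fibrils, was at 2850, 4319 and 6893 in neg and at 10.4, 0 and 0 in high (log2 fold change -10.93 ± 1.94, adjusted p = 0.0017). The basement membrane pair Col4a1 and Col4a2 stayed well above 0: Col4a1 was at 13654, 13533 and 17173 in neg and 1075, 1799 and 1054 in high, 11.3-fold lower by the means (log2 fold change -3.53 ± 0.41, adjusted p = 1.7e-05), and Col4a2 was 4.31-fold lower (adjusted p = 0.0050). Col18a1, a basement membrane collagen whose end yields endostatin, went the other way, at 3427, 2027 and 4860 in high and 685, 641 and 770 in neg (log2 fold change 2.21, adjusted p = 0.010). Among genes of smooth muscle 1 of 10 fell, Acta2, smooth muscle actin, at 423, 742 and 376 in neg and 0 in high (adjusted p = 0.030), and among those of portal fibroblasts and mesothelium 1 of 9, Eln, elastin, at 842, 1123 and 1150 in neg and 0 in high (adjusted p = 0.011). Single calls in lists of this size are little to read beside the 2.25% of all genes that fell. Myh11, smooth muscle myosin, was at 2644 to 8981 in neg and 0 to 421 in high (adjusted p = 0.079), and Fbln2, a fibulin, at 533 to 2589 in neg and 0 to 70.1 in high (adjusted p = 0.10). The call of Acta2 was lost without neg 2 (adjusted p = 0.053), where no smooth muscle gene passed, and 2 passed without neg 3 or high 2. The stellate list moved with the collagens, and its part in them was not tested. Between 7 and 9 collagens fell with each library left out, and 5 in the fit of high and neg alone. Without the variance trend 6 fell, and the calls of Col4a1, Col4a2 and Col18a1 were lost (adjusted p = 0.060, 0.29 and 0.25); Col18a1 was also lost in the fit of high and neg alone (0.062), as was Acta2 (0.060). Col4a1 overlaps Col4a2 on the opposite strand.

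Of 13 Kupffer and macrophage genes 6 were tested and 1 rose, where 2.44% of all genes did; a single call in a list of this size is little to read. This was Csf1r, the receptor of macrophage colony-stimulating factor, at 946, 723 and 519 in high and listed at 0 in neg (log2 fold change 9.47 ± 2.28, adjusted p = 0.019), a call that was lost without any 1 high library (up to 0.069). Clec4f, the lectin of Kupffer cells, was at 164, 10.1 and 0 in high and at 0 in neg; it did not pass by limma (adjusted p = 0.47) or edgeR (0.39) but was called higher by DESeq2 (7.5e-06). Marco and Lyz2 were at 0 in all 6 libraries, and Cd68 was at 239, 0 and 0 in high and 533, 0 and 62.8 in neg. The summed level of the list was 0 to 1007 in neg and 519 to 1526 in high. Ptprc (CD45), present on all leukocytes, was at 29.4, 326 and 0 in high and 0 in neg (adjusted p = 0.34), and 0 of 5 lymphocyte, 0 of 4 granulocyte and dendritic, 0 of 5 erythroid and 0 of 1 tested neuroendocrine genes passed in limma. In the lymphocyte list 1 gene had an unadjusted p below 0.05, in the granulocyte and dendritic list 1 and in the other 2 lists 0; edgeR called 0 genes in these 4 lists, and DESeq2 called 2 granulocyte and dendritic genes and 1 erythroid gene. Without neg 3, limma called 1 granulocyte and dendritic gene lower: Flt3, a cytokine receptor of dendritic cell precursors (adjusted p = 0.012, against 0.19 with all libraries). Hba-a2, alpha globin, was at 2546 to 3146 in high and 3097 to 6608 in neg (adjusted p = 0.44); its reads may be shared with its near-identical copy Hba-a1.

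Immediate early genes, which are switched on within minutes of a stimulus, were mostly higher in high: 9 of 16 rose and 1 fell, with a median log2 fold change of 1.26. These genes were expressed in both populations. Atf3 (chr1:191170296-191218039, minus strand), a stress-induced factor, was at 34358 ± 1877 (SD, n = 3) in high and 2381 ± 320 in neg, 14.4-fold higher by the means (log2 fold change 3.86 ± 0.20, adjusted p = 3.3e-10). Klf6 was at 12692, 10762 and 12605 in high and at 981, 1206 and 893 in neg, 11.7-fold higher (adjusted p = 1.5e-06). The AP-1 genes rose by less: Fosb was 3.47-fold higher and Jun 2.35-fold, with adjusted p-values of 2.5e-08 and 3.6e-07, and Fos, Jund, Egr1, Ier2 and Btg2 rose with log2 fold changes from 0.80 to 2.64. Klf4, a factor that quiescent endothelium expresses, fell, at 2241, 3148 and 5643 in high and 17280, 13018 and 14291 in neg (log2 fold change -2.11, adjusted p = 4.4e-04). Junb and Dusp1 did not pass (adjusted p of 0.092 and 0.36). Jund lost its call without high 1 or high 3 (adjusted p up to 0.061). Without the variance trend 1 of the 16 rose, and Fosb, Jun and Klf6 had adjusted p-values of 0.35, 0.55 and 0.050; the fall of Klf4 was lost too (0.29). Fos, Egr1, Jund and Klf4 were lost in the fit of high and neg alone (0.083, 0.092, 0.092 and 0.070).

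Of 13 heat shock chaperones, which assist protein folding under stress, 1 rose and 2 fell, with a median log2 fold change of 0.38, where 2.44% of all genes tested were higher and 2.25% lower. Without neg 1, 2 genes of the list rose, and neither Hspa1a nor Hspa1b was called by limma. Hspa1a was at 31152, 12826 and 27558 in neg and 10177, 8792 and 11222 in high, and Hspa1b at 54145, 30861 and 29481 in neg and 23702, 21433 and 17185 in high, 2.37-fold and 1.84-fold lower by the means. The 2 genes are 99.2% identical over 2201 bases, so the split of reads between them is uncertain. Hsp90ab1 was 1.38-fold higher in high (adjusted p = 0.032), and Hsp90aa1 and Hspa8 did not pass. The calls of Hspa1b, Hspa1a and Hsp90ab1 were lost without any 1 of the 6 libraries, without any but neg 2 and without any but neg 1, with adjusted p-values up to 0.175, 0.229 and 0.307. None of these 3 passed in the fit of high and neg alone (0.25 to 0.41) or without the variance trend (0.60 to 0.86), and DESeq2 called neither Hspa1b (0.11) nor Hsp90ab1 (0.47).

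Of the 12 protein genes of the mitochondrial genome that were tested, 5 rose in high and 0 fell, with a median log2 fold change of 0.76. Of all genes tested, 2.44% rose and 2.25% fell. mt-Nd5, a subunit of complex I, was at 19204 ± 2308 (SD, n = 3) in high and 6270 ± 2498 in neg (log2 fold change 1.69 ± 0.23, adjusted p = 1.1e-04). mt-Co1, of complex IV, was at 67253 ± 1498 in high and 37071 ± 9708 in neg (log2 fold change 0.89 ± 0.13, adjusted p = 2.6e-04). mt-Nd6, mt-Cytb and mt-Atp6 rose by less clear margins, and mt-Nd1 did not pass (log2 fold change 0.29, adjusted p = 0.63). The share of mitochondrial ribosomal RNA moved the same way, as given at the start, and its part in these values was not tested. Calls of mt-Nd6 and mt-Atp6 were lost without any 1 of the 6 libraries (adjusted p up to 0.139 and 0.307) and that of mt-Cytb without neg 1, high 1 or high 3 (up to 0.114), so that 2 genes passed without neg 1, high 1 or high 3 and 3 without the others. In the fit of high and neg alone, and without the variance trend, 0 of the 12 passed by limma.

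**Figure D5:**
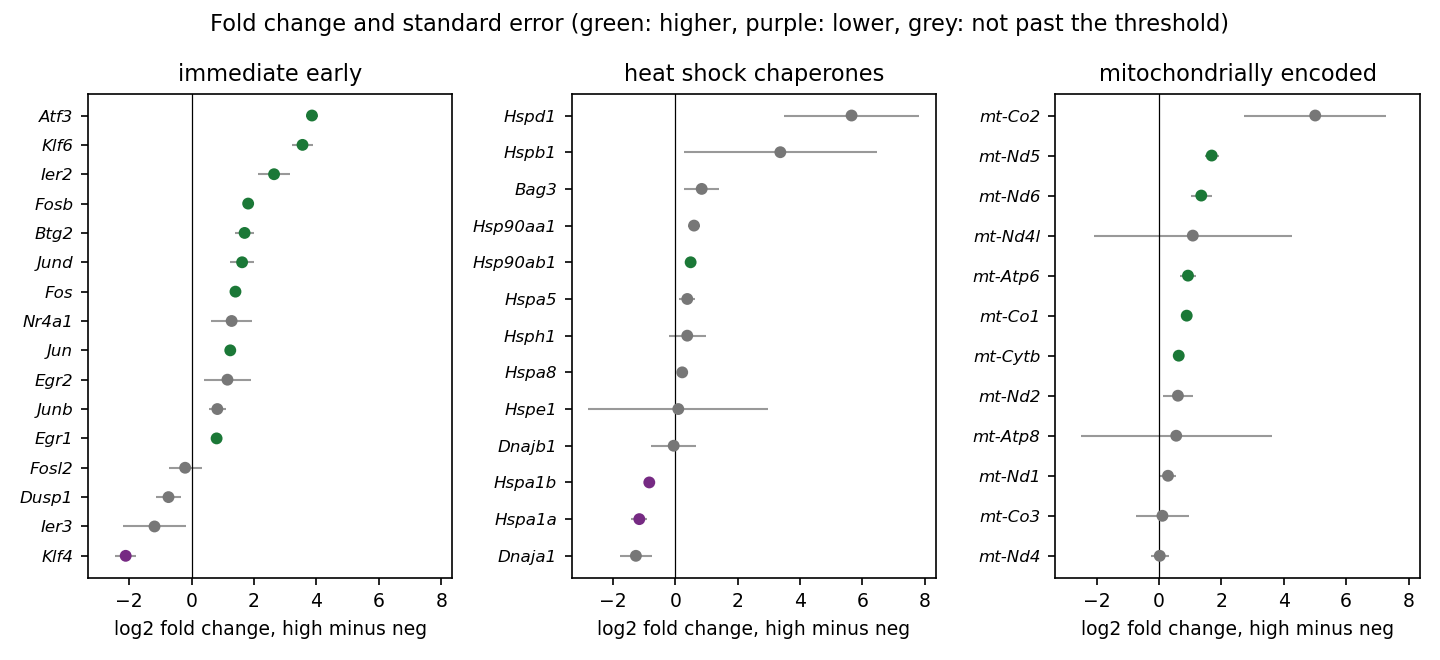
Log2 fold change, high minus neg, with its standard error (horizontal bars), for the tested members of the immediate early, heat shock and mitochondrially encoded lists. Green points are genes higher in high, purple points genes lower in high and grey points genes that did not pass; 9 of 16 immediate early genes lie to the right of 0 in green, against 1 of 13 chaperones.

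Of 13 interferon-inducible genes 2 fell, Gvin1 and Igtp, both interferon-inducible GTPases, with a median log2 fold change of -3.22 for the list, where 2.25% of all genes fell. Gvin1 was at 2203, 11034 and 2839 in neg and listed at 0 in high (log2 fold change -12.00 ± 1.94, adjusted p = 7.0e-04), but its transcript is nearly identical to that of Gm4070 over 9005 bases, so its reads cannot be placed with certainty. Gm4070 had a mean of 9450 in neg and 146 in high, so the shared sequence was not absent from high, and the fold change of Gvin1 by itself is uncertain. Igtp was at 312, 676 and 2065 in neg and 0, 2.02 and 0 in high (adjusted p = 0.047) and lost its call without any 1 of the 6 libraries (up to 0.163) and in the fit of high and neg alone (0.058). Ifit1, an interferon-induced RNA-binding protein, did not pass (adjusted p = 0.43). Among 11 antigen presentation genes 0 passed by limma, with H2-D1, a class I heavy chain, at 2799 to 6620 in high and 6735 to 8585 in neg (adjusted p = 0.31), and 0 of 9 proliferation genes passed by limma, with Pcna, the replication clamp, at 139, 1169 and 0 in high and 392, 600.5 and 1253 in neg. At an unadjusted p below 0.05 these lists held 1 and 0 genes, and edgeR and DESeq2 called 0 in both.

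High was also set against low, the neighbouring population with less reporter fluorescence, to see whether the genes named differ between them. By limma 0 of 16128 genes passed (0%), and 684 had an unadjusted p below 0.05. The low libraries had Sox9 at 8838, 10313 and 17140, Spp1 at 29882, 32021 and 43641, and Krt19 at 6631, 4936 and 5820, the last above all 3 high libraries (log2 fold change high minus low -3.09, adjusted p = 1.0). Ankrd1 was at 1901, 1548 and 3162 in low, below all 3 high libraries (log2 fold change 1.51, adjusted p = 1.0), and Ccn1 at 11123, 9242 and 16216, likewise (log2 fold change 0.98, adjusted p = 0.77). Of genes that were lower in high than in neg, Ccdc80 was at 131, 381 and 178 in low and at 0, 0 and 0.817 in high (log2 fold change -7.41, unadjusted p = 1.0e-05, adjusted p = 0.17), Ltbp4 at 275, 517 and 681 against 365, 0 and 0 (log2 fold change -6.01, adjusted p = 0.77), and Pdgfra at 357, 190 and 139 against 0, 0 and 40.8 (log2 fold change -5.94, adjusted p = 0.73). None of these differences passed with 3 libraries in each population, which does not show that the populations are alike.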

How the data were processed

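The data were the deposited table of 54227 gene symbols by 12 libraries. The authors' values in it are a signal unit, normalised counts: each library's values are whole multiples of 1 step (all values, within 0.001), so read counts were recovered by dividing by the step. The submitters' processing notes name Salmon, DESeq2 1.26.0 and mm10, with no role; the annotation, and whether counting used strand, are not given in the sources used here. Of the symbols, 33571 were 0 in every library.

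Genes with a mean of at least 10 were tested with limma 3.58.1 (R 4.3.3) on log2(normalised count + 1), with a variance trend, in a fit of all 12 libraries with 4 population means, with Benjamini-Hochberg adjustment over 16128 genes and a threshold of 0.05. A fold change on this scale understates the change of low genes and, where a population is at 0, depends on the pseudocount of 1. A fold written as "at least" sets the lower population at 3 reads per library. A value by the means is the ratio of mean normalised counts. Depth covers counting error only, and PCR copies are not independent molecules.

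The alternatives tried were a pseudocount of 0.5 or 5, dropping the filter or raising it to 100, equal totals, TMM factors, a replicate block, no variance trend, high and neg alone, each library left out, edgeR 4.0.16 (quasi-likelihood) and DESeq2 1.42.0 on recovered reads, and, added after seeing the data, both on the 10 libraries whose step was clear of 1, which leaves out high 2 and 1 sub library and so keeps 2 high libraries. For simulated high against neg data over 16128 genes, with 100 genes changed per fold size, limma recovered 100% of 4-fold and of 16-fold changes with Poisson noise, and 6% of 4-fold and 57% of 16-fold changes with a dispersion of 0.5, with 10 and 3 false calls. The changed genes were drawn from those with a simulated mean above 100 reads. The noise was set and not estimated from these data, so these rates are not those of the real libraries.

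The genes, lists and rules were chosen with earlier results of these data known. Genes were named by rule: 12 fixed genes, the 12 largest rises and 12 largest falls, and in each list up to 4 members with the lowest adjusted p that passed and the 2 most abundant that did not; other list members are named to account for counts. Gene coordinates are on mm10, and promoters on GRCm38.p6 from RefSeq. Reads of genes that overlap on opposite strands cannot be told apart. Some list members are counted but not reported here by name.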

Additional observations from a re-analysis of the deposited data

How the results depend on the processing

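The count of genes past the threshold, 757 (394 higher, 363 lower), moved by less than 1.5 times with other pseudocounts, filters and scalings, without the variance trend and with edgeR. In the fit of the high and neg libraries alone it was 341 (148 higher, 193 lower), of which 295 were shared with the 757, and 72 rather than 131 members of the gene lists passed. Like counts did not mean the same genes. Of the 757 calls, 506 were shared without the variance trend, 537 with edgeR and 591 without the filter. With other pseudocounts, the filter raised to 100 and other scalings, 714 to 746 were shared. DESeq2 on recovered reads called 2257 (1318 higher, 939 lower), and on 10 libraries 1852 (881 higher, 971 lower); the cause was not tested. In simulated data of dispersion 0.5 DESeq2 recovered 18% of 4-fold and 86% of 16-fold changes with 47 false calls, and limma 6% and 57% with 3. With Poisson noise both recovered 100%, with 0 and 10 false calls. The noise of the simulation was set and not estimated from these data, so it does not show which tool is nearer the truth here. With each library left out the count ranged from 467 to 645, with 237 to 372 higher and 215 to 296 lower, and the list members from 88 to 104. Same-numbered libraries share an identifier whose meaning is not given; the deviations of same-numbered neg and high libraries correlated at 0.012, -0.0033 and -0.0062, too low to treat them as pairs, which does not show that they share no source. The replicate block gave 715 calls (376 higher, 339 lower), and 131 list members. Of the 103 named genes past the threshold, 47 passed under all 19 alternatives, 3 (Onecut2, Dll4 and Eln) passed under the 18 that gave a value, and 42 were lost in the fit of high and neg alone. Some named genes that did not pass were called by a count test: F8, Myh11 and Hsp90aa1 with edgeR, and Myh11, Reln, Fbln2, Notch1, Lrat, Esam, Sox7, Lrp5 and Flt3 with DESeq2. For some named genes that passed, DESeq2 on recovered reads gave no adjusted p, among them Krt8, Krt18, Notch2, Cdh5, Kdr, Stab2, Mrc1 and Aqp1. The DESeq2 counts of the lists leave such genes out. Of list counts not given above, those that moved by over 1.5 times with DESeq2 included YAP targets (2 to 5 lower), Notch (2 to 4 lower), portal fibroblast (1 to 3 lower) and mitochondrially encoded (5 to 2 higher). Scaling moved the median of all genes from 0.13 to 0.095 with equal totals and 0.22 with TMM factors. There were 3 libraries per population, and the median SE was 2.35 on the log2 scale. Modest changes were not resolved for genes with an SE of that size, while some abundant genes with small SEs passed at modest values.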

Other observations

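A list of 20 cholesterol synthesis genes was added after the values were seen, so its count, like those of the other lists, is a description. By limma 5 were higher in high and 0 were lower, with a median log2 fold change of 5.14 against 0.13 over all genes. Of all genes, 2.44% were higher and 2.25% lower. DESeq2 called 8 genes of the list higher. Sqle, squalene epoxidase, was at 654, 1560.5 and 799 in high and at 2.07, 0 and 0 in neg (log2 fold change 9.33 ± 1.65, adjusted p = 0.002). Idi1, isopentenyl diphosphate isomerase, was at 1894, 2122 and 2431 in high and at 64.9, 0 and 0 in neg, and Fdft1, squalene synthase, was at 888, 2161 and 1989 in high and listed at 0 in neg. Cyp51, lanosterol demethylase, and Hmgcs1 also passed. Fdft1 lost its call without any 1 of the 6 libraries (adjusted p from 0.0507 to 0.0749), and Hmgcs1 without any but neg 1 (up to 0.308). The count was 3 or 4 with each library left out and 2 in the fit of high and neg alone. Cyp51, Idi1 and Hmgcs1 were the calls lost in that fit (adjusted p = 0.117, 0.092 and 0.405).

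Among noncoding genes, also chosen after their values were seen, Gm43305 was at 230713, 248809 and 232329 in high and at 3832, 4973 and 3567 in neg, 57.5-fold higher by the means (log2 fold change 5.86 ± 0.14, adjusted p = 6.6e-16). Gm48275 was at 111563, 117500 and 105666 in high and at 1169, 2713 and 4597 in neg (log2 fold change 5.51 ± 0.29, adjusted p = 3.3e-10). All 287 bases of Gm48275 are 100% identical to Gm42428, which was at 26.8, 0 and 0 in high and at 0 in neg, and 98.955% identical to part of Gm43305, so how reads were split between them is uncertain. Both were also high in the low libraries, at 231677 to 300809 and 122178 to 148733.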
